A study of Mus musculus with 4 samples.

Results

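The potassium channel genes of the mouse were examined in bulk RNA-seq of neurons made from embryonic stem (ES) cells. A gene was a member if its symbol begins with Kcn and is listed in all 4 libraries, which gave 94 genes of the 34968 shared symbols. Both ES lines came from 1 parental line that carries Dlx6a-Cre and the Ai9 reporter, so that neurons of subpallial lineage become red with tdTomato. Both also carry Nkx2-1 and the transactivator tTA2S behind Nestin control sequences, and a TRE cassette that tTA2S switches on. In the N/D line the cassette holds Dlx2. In the N/D/S line it holds Dlx2 together with V5-tagged St18, a zinc finger factor, and the comparison asks what St18 adds. The lines were selected as clones, and their strain is given as C57/BL6. Cells were grown for 12 days as floating embryoid bodies with XAV-939, which blocks Wnt signalling, and SAG, which activates hedgehog signalling, and tdTomato+ cells were then sorted by flow cytometry. Each line gave 2 libraries, numbered replicate 1 and replicate 2 in the labels. The labels do not say whether these came from separate cultures, so p-values measure only the spread between these libraries.

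Potassium channels let potassium ions leave or enter the cell through a pore formed by 4 subunits or by a pair of two-pore subunits. They set the resting potential, end the action potential and shape the intervals between spikes. Voltage-gated (Kv) pores open on depolarization, inward rectifiers and two-pore channels act near rest, and calcium- or sodium-activated pores answer to ions that enter with a spike. Auxiliary subunits form no pore and change the trafficking or gating of the pores they bind. In GABAergic neurons of the medial ganglionic eminence lineage, fast-spiking cells are known for Kv3 channels, and such firing properties are acquired late in maturation.

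The pore-forming members are related through the selectivity filter, the short loop at the narrowest part of the pore. It was searched for in the reading frame of the longest annotated coding sequence of each gene (GENCODE M21, GRCm38), on the coding strand only. The search letters were a threonine or serine codon (ACN, TCN, AGT or AGC), any codon, a glycine codon (GGN), a tyrosine or phenylalanine codon (TAT, TAC, TTT or TTC) and a second glycine codon. All 77 members of the pore-forming classes held a match, whereas none of the 16 auxiliary subunits did, and Kcnrg, a regulator that forms no pore, held none either. Among all 21463 protein-coding genes, 568 (2.65%) held one. Two-pore subunits, which carry a pair of pore loops in 1 protein, held 2 matches in 11 of 14 genes. When a leucine codon was allowed at the tyrosine position, they did so in 14 of 14. That wider pattern also gave 2 matches in 1 Kv pore gene, Kcna6, and 1 ether-a-go-go gene, Kcnh2. A match is a description of the letters and not evidence of a working pore. The stretches below are those of pore genes that the expression results turn on, in coding orientation, with the match in capitals and 5 codons on either side.
Kcnn1: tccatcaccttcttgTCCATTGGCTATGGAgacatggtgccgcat
Kcnc1: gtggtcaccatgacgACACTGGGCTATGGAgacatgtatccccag
Kcnb2: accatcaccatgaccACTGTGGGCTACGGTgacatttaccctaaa
Kcnma1: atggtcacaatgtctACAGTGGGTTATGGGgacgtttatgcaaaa
Kcnu1: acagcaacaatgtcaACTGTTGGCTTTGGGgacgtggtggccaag
Kcnh2: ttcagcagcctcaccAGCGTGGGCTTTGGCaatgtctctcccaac
Kcnh4: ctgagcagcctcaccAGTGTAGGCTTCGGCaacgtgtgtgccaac
Kcnk10 first loop: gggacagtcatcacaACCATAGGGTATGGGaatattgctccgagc
Kcnk10 second loop: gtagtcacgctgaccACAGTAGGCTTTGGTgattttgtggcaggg
Kcnk2 first loop: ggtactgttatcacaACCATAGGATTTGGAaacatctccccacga
Kcnk2 second loop: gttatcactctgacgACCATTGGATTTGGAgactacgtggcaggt

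In these stretches the fourth codon of the match encoded tyrosine in Kcnn1, Kcnc1, Kcnb2, Kcnma1 and the first loop of Kcnk10. It encoded phenylalanine in Kcnu1, Kcnh2, Kcnh4, the second loop of Kcnk10 and both loops of Kcnk2. On GRCm38 the stretch of Kcnn1 lies in exon 4 of 9 (chr8:70850642-70850686, minus strand) and that of Kcnc1 in exon 2 of 4 (chr7:46427958-46428002, plus strand). Kcnb2 carries it in exon 3 of 3 (chr1:15710031-15710075, plus strand), Kcnma1 in exon 8 of 31 (chr14:23528398-23528442, minus strand) and Kcnu1 in exon 8 of 27 (chr8:25881375-25881419, plus strand). In Kcnh2 it lies in exon 7 of 15 (chr5:24325540-24325584, minus strand) and in Kcnh4 in exon 8 of 17 (chr11:100750278-100750322, minus strand). The stretches of Kcnk10 and Kcnk2 are each joined across an intron, which the span on the genome includes, and both genes are on the minus strand. They span chr12:98490043-98496214 and chr12:98436333-98440634 for the loops of Kcnk10, and chr1:189258876-189295615 and chr1:189243025-189256610 for those of Kcnk2.

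Expression was deposited as TPM (transcript abundance scaled to a fixed total in each library), a unit that also corrects for transcript length, so levels of different genes can be compared within a library. Groups of 4 values are given in 1 order throughout, N/D replicates 1 and 2 followed by N/D/S replicates 1 and 2. The labelled identity was checked on markers, with all 7 neuronal markers and all 7 markers of forebrain GABAergic neurons at 1 TPM or more in every library. The GABAergic markers summed to 531, 941, 1102 and 425 TPM and the neuronal ones to 4080, 3000, 4665 and 3266 TPM. St18 itself, at 28.5, 26.6, 44.4 and 15.9 TPM, did not separate the lines, so directions given here rest on the labels. The library labelled N/D replicate 1 stood apart, and it also had the fewest symbols above 0, 13504 against 17220 to 20878 in the others. Sequencing depth cannot be read from TPM and is unknown, and a value of 0 is described only as listed at 0. Since RNA was measured in bulk, fewer cells of a type and less RNA per cell cannot be told apart.

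Potassium channel expression was uneven within each library, with 7, 13, 11 and 7 members at 10 TPM or more. The members summed to 236, 391, 437 and 262 TPM. The same libraries, N/D replicate 2 and N/D/S replicate 1, were highest for this sum and for that of the GABAergic markers, whose part in the channel values was not tested. At least 1 TPM was reached by 12, 47, 48 and 34 of the 94 members, and 68, 7, 15 and 30 were listed at 0. The library labelled N/D replicate 1 had the fewest members above 0, yet its highest member, Kcnh4 at 56.6 TPM, exceeded the highest member of each other library. The highest member of N/D replicate 2 was Kcnip1 at 35.5 TPM, and Kcnn1 led both N/D/S libraries at 53.5 and 30.5 TPM. Across the family, 45 members had at least 1 TPM in at least 2 libraries and were tested, 11 reached 1 TPM in exactly 1 library, and 38 stayed under 1 TPM in every library. Of the last, Kcna10 and Kcnmb3 were listed at 0 throughout. Members that were the highest of their subfamily, among the 15 most abundant, or among the 5 largest differences in either direction were named by rule, and others are named because of their values.

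**Figure D1:**
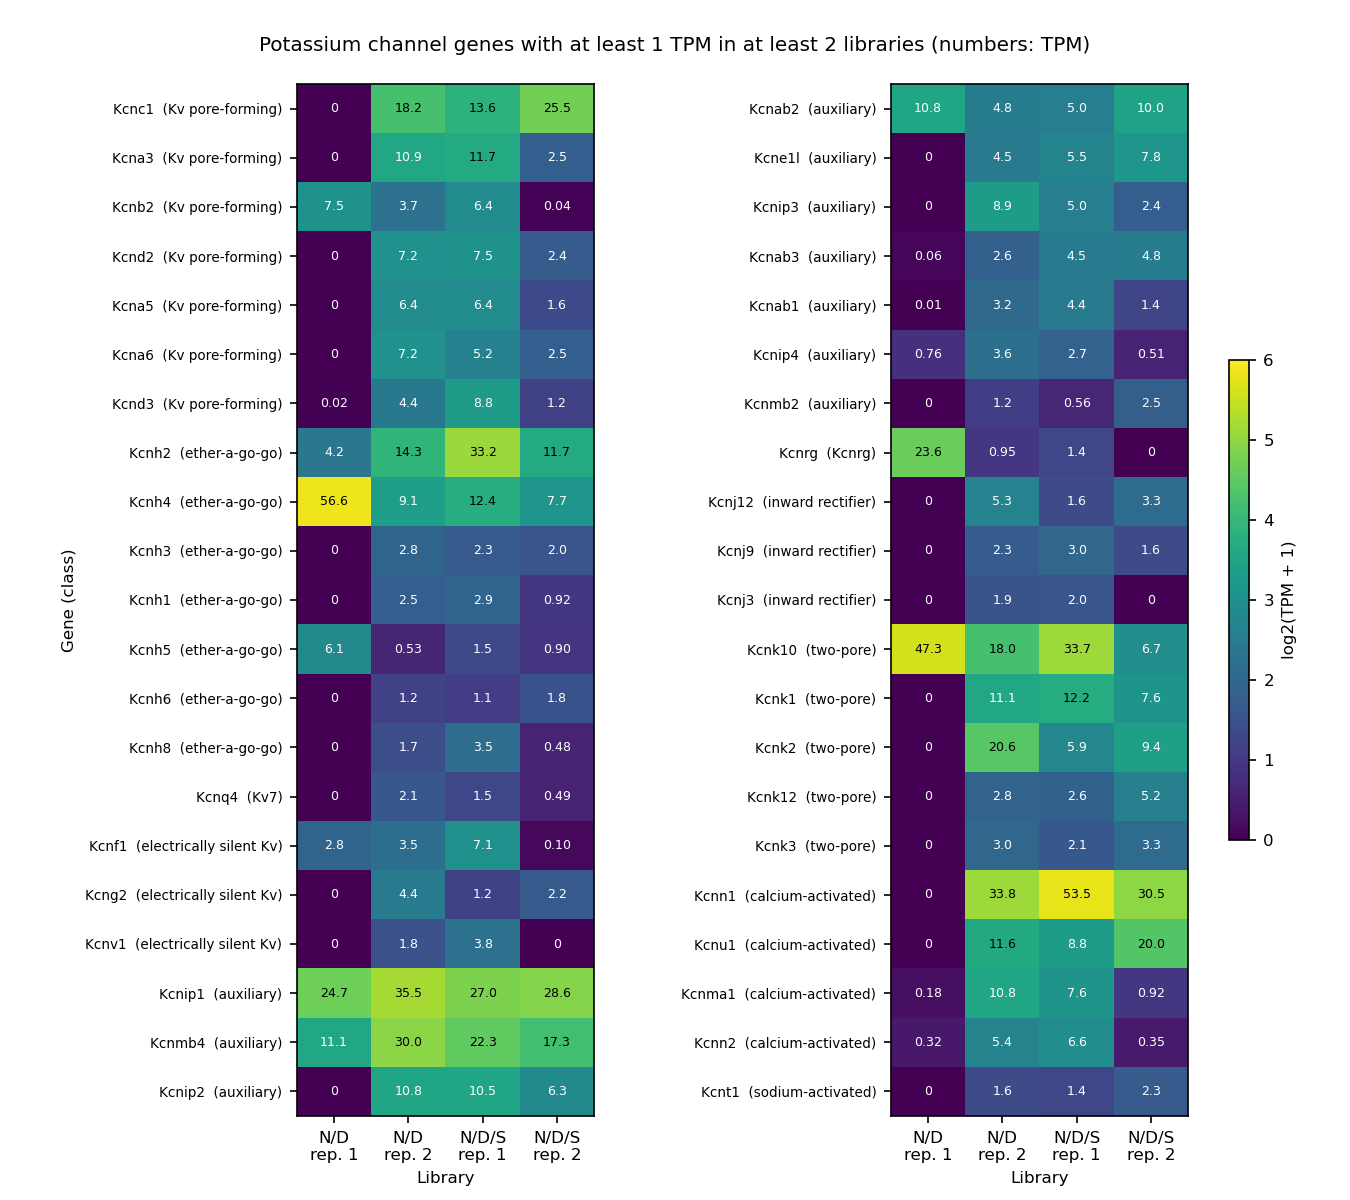
Abundance of 42 tested potassium channel genes (rows, with their class) in the 4 libraries (columns). Colour gives log2(TPM + 1) and the printed number the TPM. The first column, N/D replicate 1, holds 26 genes listed at 0 beside Kcnh4 at 56.6 TPM and Kcnk10 at 47.3 TPM, and the other columns resemble each other more.

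The Kv pores are the delayed rectifiers and A-type channels that repolarize the neuron. Their 17 genes summed to 7.49, 70.8, 73.1 and 41.1 TPM. Kcnc1, the Kv3 gene of fast-spiking neurons (chr7:46396497-46438704), had 0, 18.2, 13.6 and 25.5 TPM. It was the highest Kv pore in every library but the one labelled N/D replicate 1, where it was listed at 0, and its N/D and N/D/S values overlapped. Kcnb2, a Kv2 delayed rectifier (chr1:15287254-15723750), behaved otherwise, with 7.45, 3.71, 6.40 and 0.0426 TPM. It made up 99.5% of the Kv pore TPM in N/D replicate 1 and was lowest in N/D/S replicate 2.

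Of the 8 Shaker-type (Kcna) genes, 6 lie in clusters on chromosomes 3 and 6, and those of a cluster differed among themselves. On chromosome 3, Kcna3 (chr3:107036169-107038070), a slowly inactivating Kv1 pore, had 0, 10.9, 11.7 and 2.46 TPM. Next to it, Kcna2 (chr3:107101146-107115005), a Kv1 pore of axons, had 0.0112, 0.914, 1.00 and 0.0169 TPM, and Kcna10 (chr3:107183056-107195721) was listed at 0 in all 4 libraries. On chromosome 6, Kcna5 (chr6:126532551-126535412) had 0, 6.39, 6.41 and 1.56 TPM and Kcna6 (chr6:126708329-126740674) had 0, 7.16, 5.25 and 2.49 TPM. Kcna1 (chr6:126640397-126646384), which lies between them and is known from mature axons, had 0, 0.187, 2.61 and 0 TPM. Kcna3, Kcna5 and Kcna6 were all listed at 0 in N/D replicate 1 and next lowest in N/D/S replicate 2. Exons of Kcna6 overlap those of Gm26673 on the opposite strand over 39.6% of their length, and whether the authors' quantification used strand is not stated in the sources used here. The A-type genes Kcnd2 and Kcnd3, which carry a somatodendritic current, had 0, 7.23, 7.51 and 2.38 TPM and 0.0179, 4.37, 8.77 and 1.25 TPM. Both were lowest in N/D replicate 1 and next lowest in N/D/S replicate 2.

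The ether-a-go-go (Kcnh) genes encode voltage-gated pores that shape excitability. They summed to 66.9, 33.5, 57.9 and 26.0 TPM. Kcnh4, a telencephalic member (chr11:100740376-100759942), had 56.6, 9.09, 12.4 and 7.69 TPM. N/D replicate 1 was far above the other 3 libraries, which lay close together. Kcnh2, whose channel carries a rapid delayed rectifier current also known from heart (chr5:24319589-24351604), was lowest there, with 4.23, 14.3, 33.2 and 11.7 TPM. Kcnh5 had 6.07, 0.528, 1.50 and 0.904 TPM. As with Kcnh4, N/D replicate 1 alone was high, and the libraries of the lines overlapped for all 3 genes. Kcnh1, Kcnh3, Kcnh6 and Kcnh8 were listed at 0 in N/D replicate 1 and lay between 0.478 and 3.45 TPM elsewhere.

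The electrically silent Kv genes encode subunits that join Kv2 pores and conduct nothing alone. Their 10 genes summed to 2.84, 12.6, 13.8 and 2.90 TPM. Kcnf1 had 2.84, 3.48, 7.10 and 0.101 TPM, and Kcng2 had 0, 4.42, 1.22 and 2.24 TPM. Kcnf1 was thus lowest in N/D/S replicate 2, like Kcnb2, whereas Kcng2 was lowest in N/D replicate 1. Kcnv1 had 0, 1.82, 3.77 and 0 TPM, and the Kcns genes stayed under 1 TPM in every library.

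The auxiliary genes were the most abundant class in each library but N/D replicate 1, where the Kcnh genes led, with 47.5, 105, 88.1 and 83.3 TPM over 16 genes. Kcnip1, a calcium-binding partner of Kv4 pores known from GABAergic interneurons (chr11:33629339-33993152), had 24.7, 35.5, 27.0 and 28.6 TPM. It was the steadiest of the named members, with a residual standard deviation between libraries of a line of 0.25 on the log2 scale. Kcnip2 had 0, 10.8, 10.5 and 6.35 TPM, which shows that steadiness was not shared by the subfamily. The Kcnip genes together had 25.5, 58.8, 45.2 and 37.9 TPM against 0.0179, 12.6, 18.0 and 3.67 TPM for the Kcnd pores they bind, so partners exceeded pores in every library. Dpp6, another partner of these pores, had 15.0, 32.8, 29.7 and 13.1 TPM. Kcnmb4, the neuronal subunit of the large-conductance calcium-activated channel (chr10:116417861-116473878), had 11.1, 30.0, 22.3 and 17.3 TPM. The pore it binds, Kcnma1, was below it in each library, with 0.179, 10.8, 7.61 and 0.919 TPM. Exons of Kcnmb4 overlap the antisense transcripts Kcnmb4os2 and Kcnmb4os1 over 20.8% and 10.7% of their length.

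Kcnab2, a subunit that carries Kv1 pores to axons, had 10.8, 4.80, 4.97 and 9.96 TPM. High and low values fell in both lines. Kcnab3, of the same subfamily, had 0.0566, 2.57, 4.51 and 4.77 TPM. Kcne1l, a single-pass subunit that modulates Kv7 pores, had 0, 4.46, 5.50 and 7.82 TPM. For Kcnab3 and Kcne1l, both N/D/S libraries lay above both N/D libraries. Kcnrg, a soluble protein related to the assembly domain of Kv pores and known to reduce their currents (chr14:61607457-61612826), had 23.6, 0.946, 1.42 and 0 TPM. Like Kcnh4 and Kcnh5, it was high in N/D replicate 1 alone.

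Calcium-activated pores follow calcium entry with an afterhyperpolarization. The class summed to 0.567, 62.5, 77.2 and 51.8 TPM, so that N/D replicate 1 alone was under 1 TPM for the whole class. Kcnn1, a small-conductance pore (chr8:70842049-70863258), had 0, 33.8, 53.5 and 30.5 TPM. In the 3 libraries where it was above 0, it supplied 54.1% to 69.3% of the class. Kcnn2, of the same subfamily, had 0.322, 5.38, 6.64 and 0.347 TPM, and was low in N/D/S replicate 2 as Kcnma1 was. Kcnu1 (chr8:25849623-25937939), grouped here by its relation to Kcnma1 but gated by alkaline pH and known from sperm, had 0, 11.6, 8.81 and 20.0 TPM. It thus exceeded Kcnma1 wherever it was above 0. Kcnt1, a sodium-activated pore, had 0, 1.61, 1.41 and 2.32 TPM.

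Two-pore genes carry the background leak that sets the resting potential. They summed to 47.3, 57.3, 59.9 and 33.7 TPM. Kcnk10, a stretch- and lipid-sensitive leak pore (chr12:98429437-98578310), had 47.3, 18.0, 33.7 and 6.73 TPM. Its close relative Kcnk2 (chr1:189207930-189402273) had 0, 20.6, 5.90 and 9.38 TPM. Both replicate 1 libraries were thus highest for Kcnk10 and lowest for Kcnk2, and in N/D replicate 1 the only other two-pore gene above 0 was Kcnk6, at 0.00402 TPM. Kcnk1 had 0, 11.1, 12.2 and 7.64 TPM. Kcnk12 and Kcnk3 were listed at 0 in N/D replicate 1 and lay between 2.14 and 5.15 TPM elsewhere. Of the 15 inward rectifiers, which hold neurons near the potassium equilibrium potential, 3 were tested, and the class summed to 1.91, 13.5, 7.82 and 5.89 TPM. Kcnj12 had 0, 5.32, 1.58 and 3.28 TPM. Kcnj9 and Kcnj3, subunits opened by G proteins, had 0, 2.34, 2.95 and 1.59 TPM and 0, 1.92, 2.03 and 0 TPM. Kcnj11, the pore of ATP-sensitive channels, had 1.88, 0.562, 0.489 and 0.111 TPM, and its receptor subunit Abcc8 had 0, 1.00, 0.926 and 0 TPM.

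**Figure D2:**
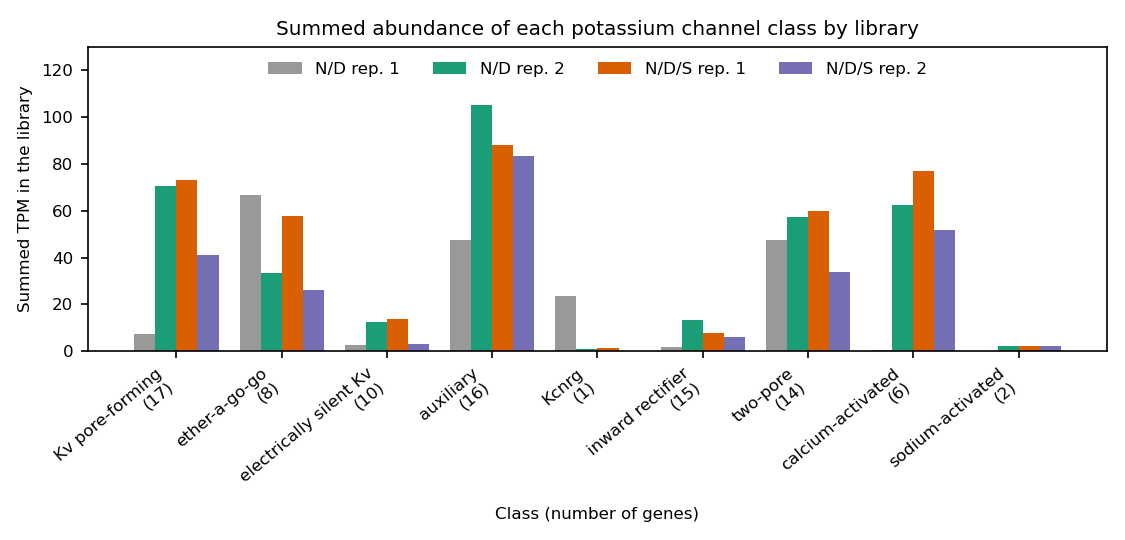
Summed TPM of 9 potassium channel classes (x axis, with its number of genes) in each of the 4 libraries (bars), as single values without error. Calcium-activated genes sum to 0.567 TPM in N/D replicate 1 and to 51.8 to 77.2 TPM in the other libraries, whereas Kcnrg is at 23.6 TPM in N/D replicate 1 and at most 1.42 TPM elsewhere.

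The lines were compared with limma on log2(TPM + 1) over the 12975 genes that reached 1 TPM in 2 or more libraries, and p-values were adjusted over all of them by the Benjamini-Hochberg method. Of the 45 tested members, 0 were higher in N/D/S past the threshold (0% of all genes tested) and 0 were lower (0% of all genes tested), and each had an adjusted p of 1. At an unadjusted p under 0.05 there were 0 members against 0.0617% of all genes tested, which is 8 genes. The largest difference towards N/D/S was that of Kcnn1, at 2.81 on the log2 scale (standard error 1.68), with a Benjamini-Hochberg adjusted p of 1 in the limma fit and an unadjusted p of 0.138. Kcnc1 followed at 2.16 (standard error 1.50), Kcnu1 at 2.01 (standard error 1.40), Kcne1l at 1.70 (standard error 1.16) and Kcnk1 at 1.62 (standard error 1.36). Each of these 5 genes was listed at 0 in N/D replicate 1. Without that library their differences were, in the same order, 0.25, 0.03, 0.19, 0.47 and −0.18. Towards N/D, Kcnrg was at −2.15 (standard error 1.41), Kcnb2 at −1.18 (standard error 1.24), Kcnh4 at −1.16 (standard error 1.18), Kcnk10 at −0.89 (standard error 1.17) and Kcnh5 at −0.59 (standard error 1.13). Each of those 5 was highest in N/D replicate 1. Without it their differences were, in the same order, −0.32, −0.76, 0.10, −0.22 and 0.51. In 36 of 45 members (80.0%, against 72.8% of all genes tested) the difference did not reach the residual standard deviation between libraries of a line, whose median was 1.27 for the members and 1.03 for all genes tested. With 2 libraries in each line, a two-sided exact permutation test of a single value cannot give a p below 0.333.

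Counts of direction depended on 1 library. The log2 difference was above 0 in 35 of 45 members (77.8%, against 61.4% of all genes tested), with a median of 0.67 against 0.26. When N/D/S was set against N/D replicate 2 alone, it was above 0 in 13 of 45 (28.9%, against 29.0%), with a median of −0.32 against −0.29, and the sign changed in 28 of 45 (62.2%, against 47.1% of all genes tested). Under quantile normalization it was above 0 in 22 of 45 (48.9%, against 46.9%), with a median of −0.03 against −0.05. For members listed at 0 in a library the size also follows the pseudocount, and the median was 1.89 with 0.1 TPM in place of 1 TPM. Within replicate 1 and within replicate 2 the differences had opposite signs in 32 of 45 members (71.1%, against 65.6% of all genes tested). Kcnn1, for example, differed by 5.77 in replicate 1 and −0.14 in replicate 2, and Kcnma1 by 2.87 and −2.62. Without N/D replicate 2, which leaves N/D replicate 1 as the only N/D library, 9 of 35 members (25.7%, against 25.0% of all 11619 genes tested there) passed the threshold of 0.05 on the adjusted p, namely Kcna3, Kcnc1, Kcne1l, Kcnip2, Kcnk1, Kcnk2, Kcnn1 and Kcnu1 towards N/D/S and Kcnrg towards N/D.

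**Figure D3:**
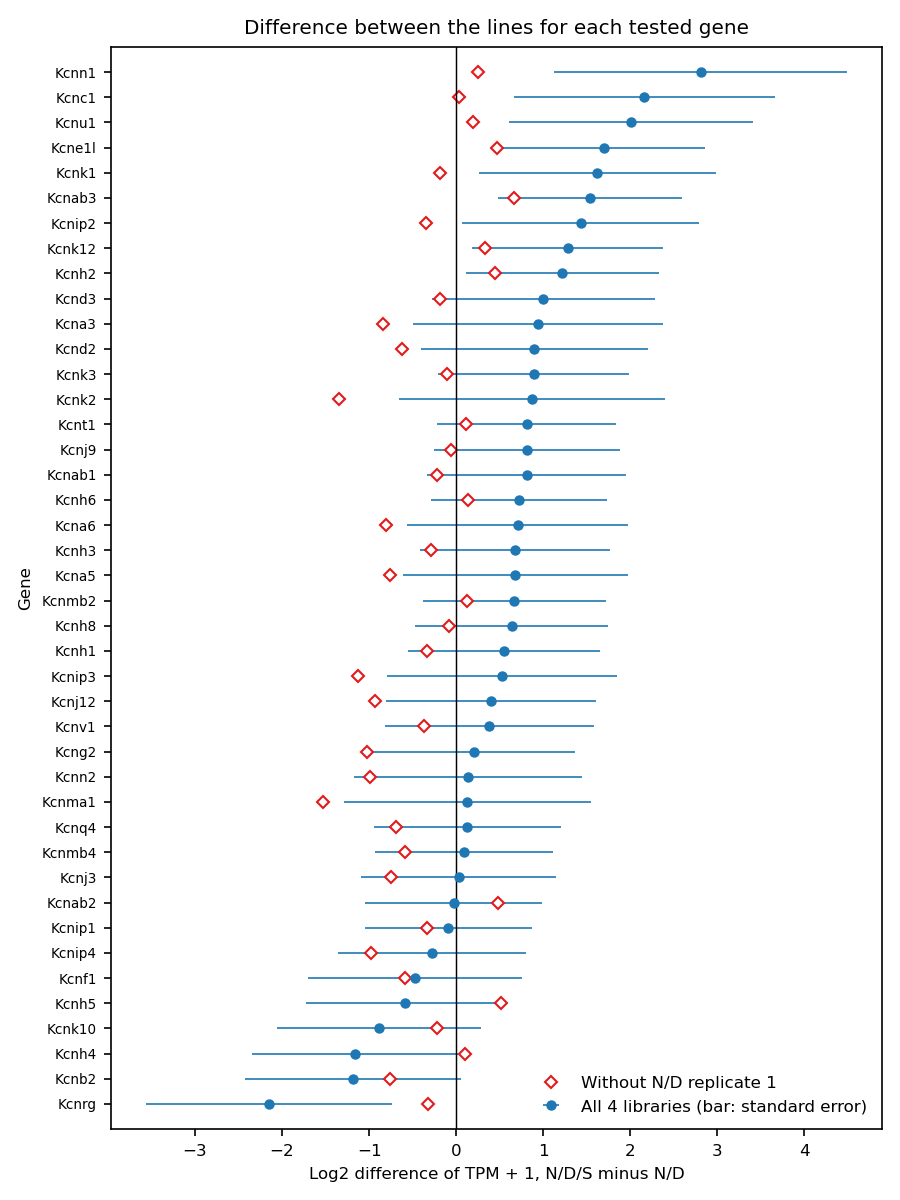
Log2 difference of TPM + 1, N/D/S minus N/D (x axis), for 42 tested genes (y axis), with all 4 libraries (filled circles, bars for the standard error) and without N/D replicate 1 (open diamonds). Filled circles are above 0 for 33 genes and open diamonds for 13 (over all 45 tested genes, 22 differences are above 0 after quantile normalization).

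Members whose lines did not overlap were few. Both N/D/S libraries were above both N/D libraries in 2 of 45 (4.44%, against 8.69% of all genes tested), Kcnab3 and Kcne1l, and below in 0 of 45 (against 8.23%). The difference of Kcnab3 was 1.54 (standard error 1.06). In the limma fit Kcnab3 had an unadjusted p of 0.191 and Kcne1l one of 0.187, and the Benjamini-Hochberg adjusted p was 1 for both. Against N/D replicate 2 alone these differences were 0.66 and 0.47. In that comparison both N/D/S libraries were above in 4 of 45 (8.89%, against 13.3%), adding Kcnab2 and Kcnh5, and both were below in 13 of 45 (28.9%, against 31.9%), among them Kcnip1, Kcnk2, Kcnma1 and Kcnmb4. It gave 0 members at an unadjusted p under 0.05, against 0.37% of all genes tested.

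Some libraries of different lines were nonetheless much alike, in channel genes about as in all genes tested. N/D replicate 2 and the first N/D/S library were within 2-fold on TPM + 1 for 41 of 45 members (91.1%, against 89.5% of all genes tested), and the exceptions were Kcng2, Kcnh2, Kcnj12 and Kcnk2. The libraries of the N/D/S line were within 2-fold for 24 of 45 (53.3%, against 54.4%). Those of the N/D line were within 2-fold for 4 of 45 (8.89%, against 35.4%), among them Kcnb2, Kcnf1 and Kcnip1. By this share the closest of the 6 pairs of libraries crossed the lines and the N/D line was the most distant. Across these 45 genes, a description only since genes do not vary independently, Pearson's r on the log2 scale was also highest for the closest pair, at 0.88, but it was lowest for N/D replicate 1 with N/D/S replicate 2, at 0.25 against 0.31 within the N/D line.

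**Figure D4:**
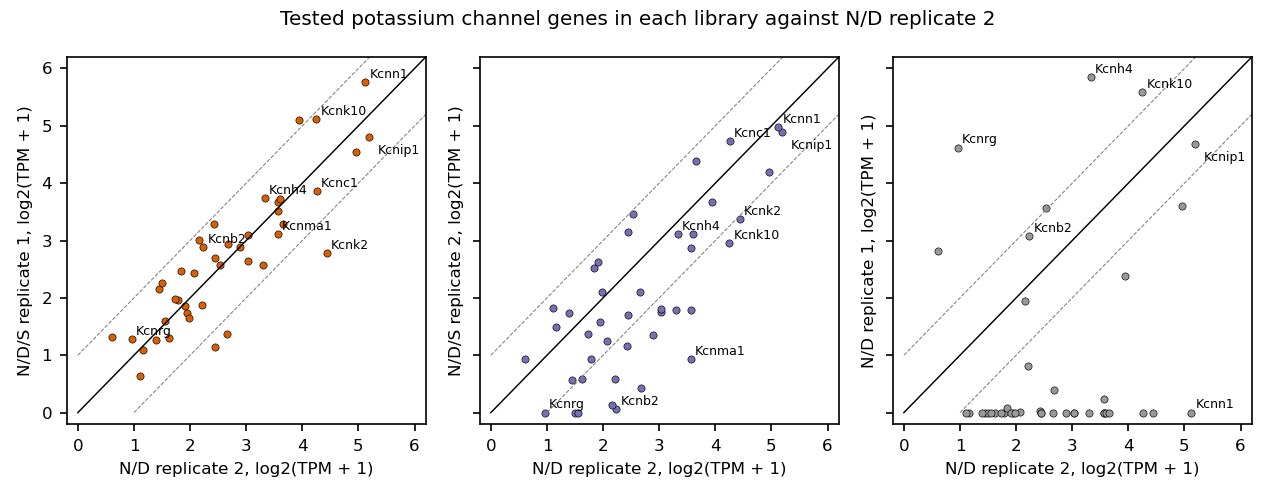
Tested genes (42) as log2(TPM + 1), with N/D replicate 2 on the x axes. The y axes of the 3 panels show, from left to right, the first N/D/S library, the second N/D/S library and N/D replicate 1. Solid lines mark equality and dashed lines a 2-fold difference, within which lie 38, 26 and 3 genes.

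In the library labelled N/D replicate 1 a larger share of channel genes than of all genes was listed at 0, a difference that was not tested because only 1 library bears it. Of 31 members that reached 1 TPM in the other 3 libraries, 20 were listed at 0 there (64.5%, against 21.9% of all such genes). Split by the mean of those libraries, this was 15 of 21 under 10 TPM (71.4%, against 44.2%) and 5 of 10 at 10 TPM or more (50.0%, against 13.2%). The latter 5 were Kcnc1, Kcnk1, Kcnk2, Kcnn1 and Kcnu1. Conversely, 2 of 59 members under 3 TPM in each other library had at least 5 TPM in it (3.39%, against 0.65%), Kcnh5 and Kcnrg. The longest annotated transcript had a median of 4076 bases for the 12 members at 1 TPM or more in N/D replicate 1 and of 3452 bases for the 20 listed at 0.

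Low values in N/D/S replicate 2 concerned other members. Of 26 members with at least 3 TPM both in the first N/D/S library and in N/D replicate 2, 5 were under 1 TPM in N/D/S replicate 2 (19.2%, against 4.03% of all such genes). Among them were Kcnb2, Kcnma1, Kcnn2 and the silent subunit Kcnf1, which joins Kv2 pores such as Kcnb2. In N/D replicate 1, by contrast, Kcnb2 and Kcnf1 had 7.45 and 2.84 TPM, so these members were low in N/D/S replicate 2 but not there.

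Genes that work with these channels were taken from a list of 25, of which 20 were tested. Past the threshold, 0 were higher and 0 lower (0% of all genes tested in either direction), and 9 of 20 differences were above 0 (against 61.4% of all genes tested). Their median was −0.10 against 0.26 for all genes tested, or −0.66 against −0.29 without N/D replicate 1. Lrrc55, a subunit of the Kcnma1 channel, had 0, 1.74, 2.72 and 2.36 TPM and Adam22, of the Kv1 complex, had 4.45, 9.77, 12.5 and 19.5 TPM, so for both genes the N/D/S libraries lay above the N/D libraries. Ank3, the anchor of Kv7 pores at the axon initial segment, had 106, 25.8, 25.1 and 8.51 TPM, with both N/D/S libraries below both N/D libraries. Dlg2, a scaffold of Kv1 pores, had 52.3, 4.87, 8.12 and 0.0152 TPM. Amigo1, the partner of Kv2 pores, was even at 23.5, 14.5, 17.8 and 15.6 TPM and did not follow Kcnb2.

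Markers of other cells moved with some of these values. All 5 markers of the oligodendrocyte lineage were listed at 0 in N/D replicate 1, and the list summed to 0, 147, 17.4 and 38.0 TPM. The 5 astrocyte markers summed to 5.39, 40.5, 7.43 and 32.8 TPM, with Aqp4, Gfap and Aldh1l1 listed at 0 in N/D replicate 1, and the 3 markers of pluripotent cells to 0.247, 19.8, 0.472 and 25.0 TPM. These sums were highest in N/D replicate 2 or N/D/S replicate 2. Kcnk2, also found in glia, was likewise higher in those libraries than in the replicate 1 libraries. So were other members, such as Kcnc1, Kcnu1 and Kcnj12, and the likeness is thus not particular to Kcnk2. Kcnj10, the inward rectifier of glia, had 0, 1.17, 0.0812 and 0.00847 TPM and so did not follow the marker sums in N/D/S replicate 2. The 4 markers of endothelium and mural cells summed to 38.8, 3.88, 6.22 and 8.45 TPM and were highest in N/D replicate 1, as were Kcnrg, Kcnh4 and Kcnh5, but only 1 of the 4 was at 1 TPM or more there, and Cldn5 and Pdgfrb were listed at 0. The 8 progenitor markers summed to 355, 320, 340 and 206 TPM, the 3 endoderm markers to 0, 10.9, 1.84 and 5.88 TPM, and the microglial and muscle markers to at most 1.38 and 1.84 TPM. The part of these cells in the channel values was not tested.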

How the data were processed

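The authors sorted tdTomato+ cells into Trizol, required an RNA integrity number of 7 or more, selected poly-A RNA, made TruSeq libraries and sequenced them on an Illumina NovaSeq. Per the labels, reads were pseudoaligned with kallisto 0.44.0 (mouse build GRCm38), and the authors deposited 1 TPM value per gene symbol and library. How transcripts were combined into genes is not given in the sources used here. The 34968 symbols shared by the 4 libraries were joined, leaving out symbols turned into dates (26 per library). Depth is unknown, so no intervals are given. limma 3.58.1 in R 4.3.3 was fitted to log2(TPM + 1) over 12975 genes (at least 1 TPM in at least 2 libraries), 2 libraries against 2, without covariates, with Benjamini-Hochberg adjustment and a threshold of 0.05. It stands in for the study's sleuth, which needs more than these tables hold. The fit was tested on simulated data, with recovery required only at a spread below the median residual standard deviation of 1.03. That test therefore does not give its power on these libraries. Positions, coding sequences and lengths came from GENCODE M21.

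The members, classes and lists were chosen with earlier results of these data known. Named by rule were the 15 members with the highest median TPM, the highest of each subfamily at a median of 1 TPM or more, and the 5 largest differences in each direction. The rule also took tested members at an unadjusted p under 0.05 and those at 1 TPM or more in every library without overlap, of which there were none. Alternatives were pseudocounts, filters, scalings, a replicate block, a variance trend and each library left out in turn. N/D/S against N/D replicate 2 over the same 12975 genes was added after the values were seen. Results for items withheld for evaluation are not reported here. Figures were drawn with matplotlib 3.10.9 in Python 3.11.15.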

Additional observations from a re-analysis of the deposited data

How the results depend on the processing

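With 2 libraries a line, unknown depth and 1 library that stands apart, the counts of calls rest on single libraries. Over all 12975 genes, 0 passed the threshold in limma with Benjamini-Hochberg adjustment. A variance trend gave 6, and leaving out 1 library gave 0 to 2909, the highest without N/D replicate 2, where N/D replicate 1 is the only N/D library and its spread is assumed to be that of the N/D/S line. For the potassium channel genes the count was 0 under every alternative that kept all libraries and 0 to 9 with 1 library left out. The pairing by replicate number could not be established, since the correlation of same-numbered libraries around their line means was 0.02 over all tested genes and 0.18 over the tested members. With the replicate block 0 genes passed, 9 had an unadjusted p under 0.05 against 8 without it, and 0 of these were potassium channel genes.

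The median log2 difference of tested members lay between −0.34 and 1.88 with 1 library left out, and was −0.09 over the 7 members at 1 TPM or more in every library. Of 312 alternative values of 24 named genes, 217 with all libraries and 63 with 1 left out kept direction and call. Upper quartile scaling turned Kcnab2 to 0.00, and quantile normalization turned Kcng2 to −0.25, Kcnj12 to −0.07, Kcnma1 to −0.96 and Kcnmb4 to −0.17. That normalization moved the median of all genes from 0.26 to −0.05. With 1 library left out and the filter on low values applied again, 15 named genes took both signs. Kcnh5, −0.59 with 4 libraries, fell under that filter without N/D replicate 1 and was 0.51 over the genes of the 4-library fit. The ranges were −0.84 to 2.73 for Kcna3, −0.54 to 0.48 for Kcnab2, −2.60 to 0.23 for Kcnb2, −0.62 to 2.42 for Kcnd2, −1.91 to 0.97 for Kcnf1, −1.02 to 1.42 for Kcng2, −2.42 to 0.10 for Kcnh4, −0.34 to 0.16 for Kcnip1 and −0.35 to 3.20 for Kcnip2. They were −0.93 to 1.73 for Kcnj12, −0.18 to 3.42 for Kcnk1, −1.97 to 0.19 for Kcnk10, −1.35 to 3.08 for Kcnk2, −1.53 to 1.21 for Kcnma1 and −0.59 to 0.77 for Kcnmb4. The causes of these changes were not tested.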
